A study of Rattus norvegicus with 14 samples.

Results

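The comparison set fetal testes of 6 litters exposed to dicyclohexyl phthalate at 300 or 600 mg/kg/day against those of 6 litters exposed to 0 or 100 mg/kg/day. Litters were chosen by their labelled dose alone, which took 12 of the 14 libraries of the series. The other 2 libraries, at 900 mg/kg/day, were left out. Dicyclohexyl phthalate (DCHP) is a plasticizer of the phthalate ester class. Pregnant Harlan Sprague Dawley rats were gavaged with DCHP in corn oil, or with corn oil alone as the vehicle, from gestational day 14 to gestational day 18. Male fetuses were taken on day 18, and the testes of a litter were combined into 1 sample after some had been set aside for testosterone measurement. Each of the 4 doses compared had 3 litters, and the litter of 1 dam is the replicate throughout. RNA was measured by TempO-Seq, a targeted assay that ligates pairs of probes on their transcripts and sequences the ligated probes. The higher pool below means the 6 litters at 300 and 600 mg/kg/day, and the lower pool the 6 litters at 0 and 100 mg/kg/day.

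The fetal testis holds Leydig cells, which make testosterone from cholesterol. Cholesterol reaches these cells from lipoproteins or is made in them from acetyl-CoA, the protein of Star moves it into mitochondria, and a cytochrome P450 fed with electrons by ferredoxin (Fdx1) cuts its side chain. Phthalate esters given in late gestation are known to lower testosterone production in the fetal rat testis, and Leydig cell genes are the usual molecular readout of that exposure.

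The 12 libraries held 5558873 to 10198123 estimated counts, and 12213 of 18174 genes passed the filter on low counts, with 99.8% of the counts. Levels are given in CPM, counts scaled to the TMM-adjusted library size. Markers listed for the tissue's cell types, chosen with earlier results of these data known, were present in every library. The summed level of the Sertoli cell markers lay between 1138 and 1533 CPM and that of the germ cell markers between 1245 and 1671 CPM. The summed adrenal cortex markers, 2 genes of the table, did not exceed 4.75 CPM. Vehicle replicate 1 and 100 mg/kg/day replicate 1 stood apart from the rest. They scored -46.5 and -68.9 on the first principal component, against -6.7 to 28.2 for the other 10 libraries, so results are also given without them. The pools overlapped on this component. On the second component, 100 mg/kg/day replicate 3 scored 15.7 and the other litters of the lower pool -33.8 to -4.8. The higher pool scored -3.7 to 24, so the pools overlapped there through that litter alone. Pearson correlations of log2 CPM between libraries of different pools ran from 0.935 to 0.987, with a median of 0.973. Those between libraries of the same dose ran from 0.928 to 0.983, with a median of 0.977.

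Across the tested genes, 16 fell and 2 rose in the higher pool. These are 0.131% and 0.0164% of all tested genes, by edgeR's quasi-likelihood test at an adjusted p under 0.05 (Benjamini-Hochberg). By the lists used, the falls held 6 genes of cholesterol synthesis, Star and Fdx1 of testosterone synthesis, Scarb1 of cholesterol uptake and Cdkn1c of the imprinted genes. In no list were Svs5, Arhgef38, Stc2, Rab33a, Pcyt2 and AABR07032097.1, a locus known only by an identifier. The 2 rises were Stc1 and Testin. At an unadjusted p under 0.05, 352 genes were lower (2.88%) and 245 were higher (2.01%), which together are 4.89% of the genes tested. The median log2 fold change over all tested genes was -0.008.

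**Figure D1:**
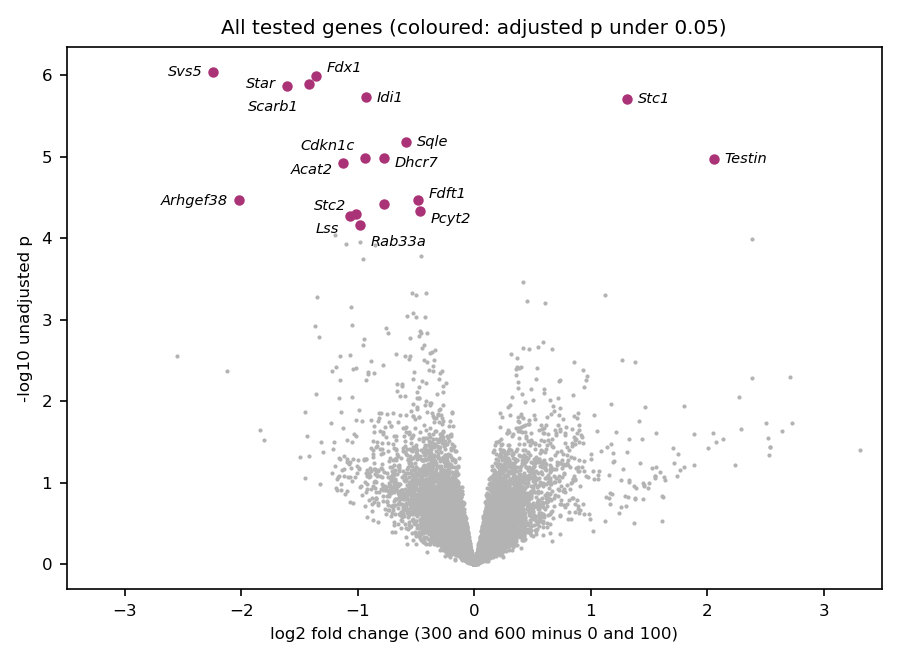
Each point is 1 of 12213 tested genes. The x axis is the log2 fold change of the higher pool over the lower pool, the y axis is the unadjusted p as -log10, and coloured points are the 18 genes with an adjusted p under 0.05, all named but AABR07032097.1. The coloured points lie mostly on the left (16 fell, 2 rose), and 1 gene that did not pass lies beyond the left edge.

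A separate count asked whether the litters of the pools overlapped, with no model. In 41 genes (0.336% of those tested) all 6 litters of the higher pool lay below all 6 of the lower pool, and 15 of these passed the test. In 28 genes (0.229%) all 6 lay above, and 2 of these passed. Of the 18 genes that passed, Stc2 alone had overlapping pools.

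Among the genes of testosterone synthesis, the carriers of cholesterol and electrons fell, and most of the enzymes after them were lower without passing by edgeR. Star, whose protein delivers cholesterol to the inner mitochondrial membrane, fell to 32.7% of its level in the lower pool. Fdx1, the mitochondrial electron donor of the first step, fell to 39.1%. Scarb1, the receptor that takes up cholesterol from high density lipoprotein, fell to 37.4%. Of 14 tested genes of the testosterone synthesis list 2 fell and none rose by edgeR, against 0.131% of all genes lower, and 5 fell by DESeq2, against 0.319%. Of these 14, 12 had a negative log2 fold change, and the list median was -0.59.

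Star (rn7 chromosome 16, 66264807 to 66271673) was read in the vehicle litters at 335.9, 207.8 and 281.3 CPM and in the litters at 100 mg/kg/day at 165.7, 115.2 and 90.92 CPM. At 300 mg/kg/day its level was 80.56, 82.24 and 64.9 CPM, and at 600 mg/kg/day it was 55.12, 55.15 and 33.45 CPM. The pools did not overlap, and within each pool every litter of the higher dose was also below every litter of the lower dose. The log2 fold change of Star was -1.61 ± 0.18 (SE; edgeR adjusted p = 0.00397).

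Fdx1 (chromosome 8, 52268536 to 52287415) ranged from 1424 to 3475 CPM with a median of 2372 in the lower pool. In the higher pool it ranged from 571.1 to 1142 CPM with a median of 922.4. Every litter of the higher pool was below every litter of the lower pool, and the log2 fold change was -1.36 ± 0.15 (edgeR adjusted p = 0.00397). Scarb1 (chromosome 12, 31296156 to 31362648) ranged from 72.63 to 196.4 CPM with a median of 147.3 in the lower pool and from 30.71 to 67.56 CPM with a median of 56.13 in the higher pool. The lowest litter of the lower pool, at 100 mg/kg/day, came close to the highest of the higher pool, without overlap. The log2 fold change of Scarb1 was -1.42 ± 0.16 (edgeR adjusted p = 0.00397). Estimated counts of Fdx1 were whole numbers, to a tolerance of 1e-09, in 1 of 12 libraries and those of Scarb1 in 3 of 12, so both rest on estimates and not on whole reads.

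Cyp11a1, the side-chain cleavage enzyme, ranged from 387.2 to 1078 CPM (median 706.3) in the lower pool and from 217.9 to 474 CPM (median 374) in the higher pool. Its pools overlapped through 100 mg/kg/day replicate 1, which lay below 2 of the 3 litters at 300 mg/kg/day. The log2 fold change was -0.96 ± 0.18 and did not pass (edgeR adjusted p = 0.0874). It passed once the 2 libraries that stood apart were left out (edgeR adjusted p = 0.0406), and with DESeq2 (adjusted p = 0.000493). Counts of Cyp11a1 were whole in 1 of 12 libraries.

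Cyp17a1, which carries out the hydroxylase and lyase steps toward androgens, had a larger fold change and a wider spread. It ranged from 99.37 to 520.5 CPM (median 257.9) in the lower pool and from 56.3 to 168.4 CPM (median 104.7) in the higher pool, with a log2 fold change of -1.35 ± 0.29 (edgeR adjusted p = 0.208). It passed with DESeq2 (adjusted p = 0.00161) and in edgeR with 1 surrogate variable (adjusted p = 0.0118). 100 mg/kg/day replicate 1 was again the lowest litter of the lower pool. Counts of Cyp17a1 were whole in 0 of 12 libraries. The abundant dehydrogenase Hsd3b3 had a log2 fold change of -0.54 ± 0.11 (adjusted p = 0.2 by edgeR and 0.0111 by DESeq2) and its near copy Hsd3b1 one of -0.52 ± 0.19 (edgeR adjusted p = 0.843). Counts of Hsd3b3 were whole in 1 of 12 libraries and those of Hsd3b1 in 0 of 12, and these paralogues are uncertain as single genes. Hsd17b3, which makes testosterone in the last step, ranged from 243.5 to 326.6 CPM in the lower pool and from 260.1 to 297.3 CPM in the higher pool. Its log2 fold change of 0.02 ± 0.08 changed sign between settings and did not pass (edgeR adjusted p = 0.971). Counts of Hsd17b3 were whole in 0 of 12 libraries.

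**Figure D2:**
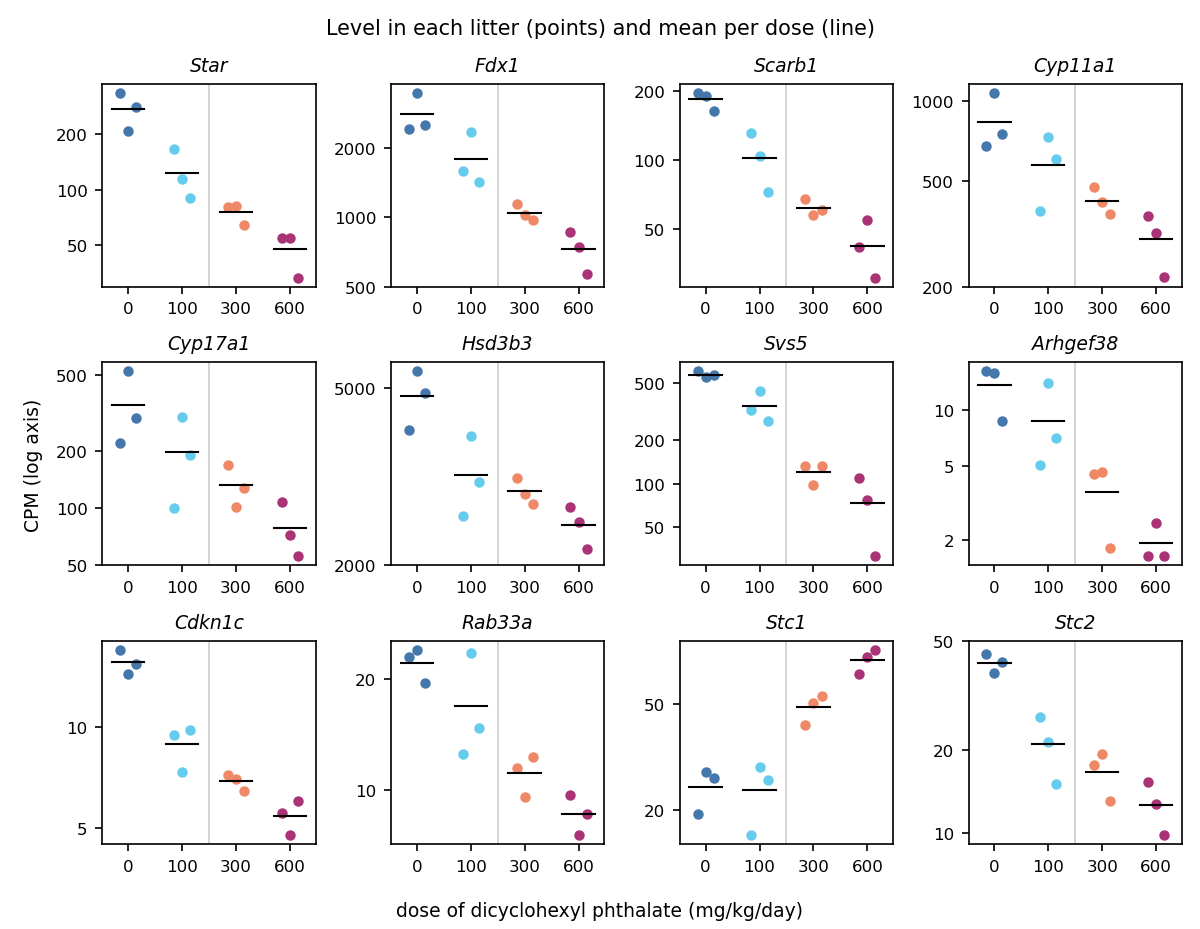
Points are single litters and lines are means of 3 litters, in CPM on a log axis, by dose in mg/kg/day, with a grey line between the pools. Star, Fdx1, Scarb1, Svs5, Arhgef38, Cdkn1c and Rab33a lie lower on the right of the grey line with no overlap, Stc1 lies higher, and Cyp11a1, Cyp17a1, Hsd3b3 and Stc2 overlap through litters at 100 mg/kg/day.

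The other 12 fetal Leydig cell genes gave no call in either direction by edgeR (0.131% of all genes lower and 0.0164% higher). Of the 12, 10 were lower, with a list median of -0.42. At an unadjusted p under 0.05, 5 were lower and 0 were higher by edgeR, against 2.88% and 2.01% of all genes. DESeq2 called 1 of the 12 lower, Inha, against 0.319% of all genes. Insl3, the Leydig cell hormone of testis descent, ranged from 1441 to 5842 CPM in the lower pool and from 1016 to 2695 CPM in the higher pool, with overlap. Its log2 fold change was -0.67 ± 0.29 (edgeR adjusted p = 0.843). Inha, the inhibin alpha subunit, had a log2 fold change of -0.50 ± 0.12 (edgeR adjusted p = 0.289), and Nr5a1, the nuclear receptor that drives steroidogenic genes, one of -0.35 ± 0.15 (edgeR adjusted p = 0.843). Inha passed with DESeq2 (adjusted p = 0.03), and in edgeR with 1 surrogate variable (adjusted p = 0.00163) or without the 2 libraries that stood apart (adjusted p = 0.0135). Lhcgr, the receptor for luteinizing hormone, was read at only 1.01 to 4.88 CPM in the lower pool and 1.46 to 2.9 CPM in the higher pool. Fewer Leydig cells and less RNA per Leydig cell cannot be told apart in these pooled testes.

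Every tested gene of the cholesterol synthesis list was lower in the higher pool. Of 14 tested genes of that list 6 fell and none rose by edgeR (0.131% of all genes lower), all 14 were lower at an unadjusted p under 0.05 (2.88% of all genes lower), and in 9 the pools did not overlap (0.336% of all genes). The list median was -0.84, with single genes between -1.20 and -0.48. The summed level of the list was 809.7 to 1086 CPM in the lower pool and 503.3 to 646.2 CPM in the higher pool, with a gap between them. With the 2 libraries that stood apart left out, 8 of the 14 fell, against 0.353% of all genes in that fit, and the median was -0.69. DESeq2 called 9 of the 14 lower, against 0.319% of all genes. These genes share regulation by sterol-sensing transcription factors that act with the CCAAT-binding factor NF-Y, which is background and not measured here.

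RefSeq promoter windows of 250 bases before the start site (rat build GRCr8, another build than the rn7 of the counts) were searched on both strands for the CCAAT box. Windows were found for 11 of the 14 cholesterol synthesis genes and for 9 of the 18 genes that passed. Star, Scarb1, Sqle, Fdft1, Cdkn1c, Arhgef38, Rab33a, Stc1 and AABR07032097.1 had no match by name. The box was in 8 of the 11 cholesterol synthesis windows (72.7%), in 4 of the 9 windows of genes that passed (44.4%; Idi1, Lss and Pcyt2, which fell, and Testin, which rose) and in 34% of all 33469 windows of the same length. The sterol element TCACNCCAC was in 0 of 11 and in 0.974% of all windows. The windows of Acat2 and Dhcr7, which fell, and of Cyp51, which did not pass, held no CCAAT box. The windows of Idi1, Lss and Msmo1 are shown as examples with the box from the cholesterol list, and Msmo1 did not pass. That of Pcyt2, a phospholipid gene, is shown as one from outside the list. The windows shown read 5′ to 3′ along the gene, with the CCAAT box, or ATTGG where it lies on the other strand, in capitals.
Idi1, chr17:66547525-66547774 (minus strand): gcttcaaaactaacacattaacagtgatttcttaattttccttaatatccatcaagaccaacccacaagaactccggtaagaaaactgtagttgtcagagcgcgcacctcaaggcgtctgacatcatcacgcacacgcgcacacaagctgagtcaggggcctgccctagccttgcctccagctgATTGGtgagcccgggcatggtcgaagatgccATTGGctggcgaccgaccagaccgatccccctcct
Lss, chr20:12118231-12118480 (minus strand): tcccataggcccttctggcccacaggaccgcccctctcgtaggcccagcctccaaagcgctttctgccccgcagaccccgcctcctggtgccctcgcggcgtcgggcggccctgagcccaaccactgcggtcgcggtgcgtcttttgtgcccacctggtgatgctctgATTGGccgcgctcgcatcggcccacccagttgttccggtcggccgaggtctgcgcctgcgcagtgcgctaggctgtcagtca
Msmo1, chr16:29746863-29747112 (plus strand): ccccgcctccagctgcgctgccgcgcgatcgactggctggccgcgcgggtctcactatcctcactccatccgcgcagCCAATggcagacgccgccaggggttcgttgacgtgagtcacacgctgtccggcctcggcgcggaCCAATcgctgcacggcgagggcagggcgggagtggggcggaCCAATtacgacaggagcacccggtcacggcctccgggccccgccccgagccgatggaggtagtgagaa
Pcyt2, chr10:106394469-106394718 (minus strand): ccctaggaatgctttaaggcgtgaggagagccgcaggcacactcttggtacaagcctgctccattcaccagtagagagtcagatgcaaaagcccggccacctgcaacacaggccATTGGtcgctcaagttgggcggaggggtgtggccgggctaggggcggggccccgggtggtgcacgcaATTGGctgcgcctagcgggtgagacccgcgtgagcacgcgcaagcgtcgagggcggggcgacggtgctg
The windows of Idi1 and Pcyt2 each hold 2 boxes, that of Lss holds 1 and that of Msmo1 holds 3. These matches describe letters and are not evidence that a factor was bound.

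The gene with the smallest p among the enzymes was Idi1, isopentenyl diphosphate isomerase (chromosome 17, 61629594 to 61637358). It ranged from 43.31 to 68.07 CPM (median 51.52) in the lower pool and from 21.94 to 31.17 CPM (median 28.43) in the higher pool, with a wide gap between the pools. Its log2 fold change was -0.93 ± 0.11 (edgeR adjusted p = 0.00397). Acat2, the cytosolic thiolase that joins acetyl-CoA units at the start of the pathway, ranged from 56.49 to 109.6 CPM in the lower pool and from 28.15 to 44.36 CPM in the higher pool. The log2 fold change of Acat2 was -1.13 ± 0.16 (edgeR adjusted p = 0.0133), with counts that were whole in 1 of 12 libraries.

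Past the first sterol precursors, Fdft1, squalene synthase, fell from a median of 188 to 140.9 CPM with a log2 fold change of -0.48 ± 0.08 (edgeR adjusted p = 0.0321). Sqle, squalene epoxidase, ranged from 165.7 to 248.7 CPM in the lower pool and from 124.1 to 146.6 CPM in the higher pool. Its log2 fold change was smaller than that of Star, at -0.59 ± 0.08, with a tighter spread (edgeR adjusted p = 0.0114). Counts of Sqle were whole in 4 of 12 libraries. Lss, which closes the sterol rings, fell from a median of 12.96 to 6.36 CPM, with a log2 fold change of -1.07 ± 0.18 (edgeR adjusted p = 0.0381). Dhcr7, which reduces the last double bond on the way to cholesterol, fell from a median of 25.05 to 14.5 CPM, with a log2 fold change of -0.77 ± 0.11 (edgeR adjusted p = 0.0129). None of these 4 genes overlapped between the pools, as was so for every gene that passed but Stc2. In 0.336% of all tested genes all 6 litters of the higher pool lay below. The litters are those of the test, so this adds no separate support.

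The remaining 8 genes of the list did not pass by edgeR. DESeq2 called 3 of them lower, Tm7sf2, Mvd and Hsd17b7 (adjusted p = 0.000284, 0.00642 and 0.00424), against 0.319% of all genes. Tm7sf2, a sterol reductase, was just outside the threshold at -1.20 ± 0.21 (edgeR adjusted p = 0.0582), and its pools did not overlap. In edgeR it passed with no filter, all 14 libraries, 1 mean per pool, 1 surrogate variable, without vehicle replicate 1, and without both libraries that stood apart, at adjusted p from 0.00129 to 0.0377. Mvd and Hsd17b7 did not overlap between the pools either, with log2 fold changes of -1.06 ± 0.23 and -0.50 ± 0.11 (edgeR adjusted p = 0.251 and 0.2). Hmgcs1, an early synthase of the pathway, had a log2 fold change of -1.19 ± 0.33 from a mean count of only 17.8 (edgeR adjusted p = 0.559).

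**Figure D3:**
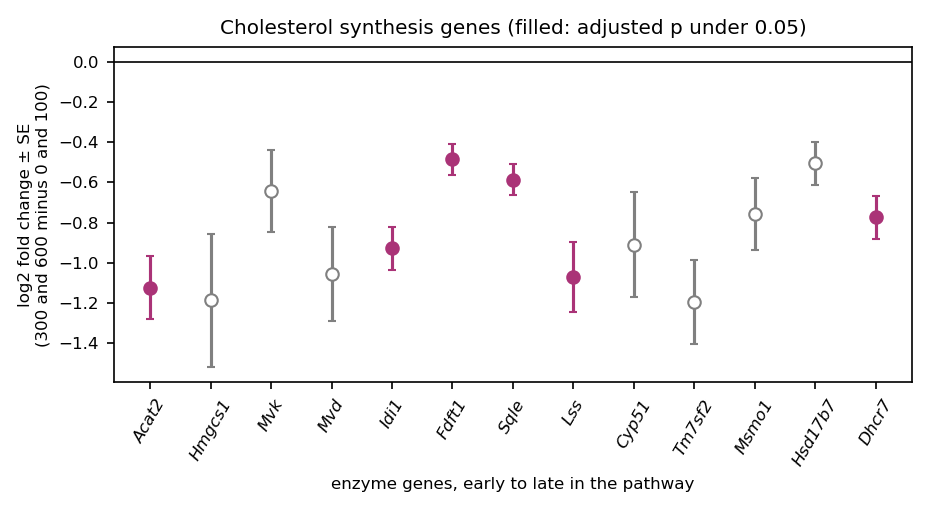
Points are log2 fold changes of the higher over the lower pool for 13 of the 14 tested cholesterol synthesis genes, in pathway order, with bars of 1 SE; filled points have an adjusted p under 0.05. All points lie below 0, from -1.20 for Tm7sf2 to -0.48 for Fdft1, and 6 are filled.

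In the list of cholesterol uptake, storage and control, 1 of 18 tested genes fell by edgeR, Scarb1, and none rose (0.131% of all genes lower). DESeq2 also called Stard4 and Insig1 lower (adjusted p = 0.00302 and 0.0475), against 0.319% of all genes. The list median was -0.145, with 12 of 18 negative. Stard4, a cytosolic sterol carrier, did not overlap between the pools, with 132.8 to 165.2 CPM against 85.92 to 114.5 CPM (log2 fold change -0.41 ± 0.09, edgeR adjusted p = 0.2). Insig1, which holds the sterol-sensing factors in the endoplasmic reticulum, had a log2 fold change of -0.74 ± 0.18 (edgeR adjusted p = 0.389). Srebf2, which encodes the main factor for cholesterol genes, had one of 0.002 ± 0.11 (edgeR adjusted p = 0.998).

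Fatty acid synthesis gave 0 calls among 10 tested genes by edgeR (0.131% of all genes lower), with a list median of -0.37. Of the 10, 9 were lower (51.7% of all genes), and 6 were lower at an unadjusted p under 0.05 (2.88% of all genes). Acss2, which makes acetyl-CoA from acetate, was the nearest to the threshold. It ranged from 5.9 to 8.03 CPM in the lower pool and from 2.1 to 5.66 CPM in the higher pool without overlap (log2 fold change -0.98 ± 0.17, edgeR adjusted p = 0.0637). DESeq2 gave Acss2 an adjusted p of 0.00145.

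Among the genes that passed by edgeR, the largest fall by fold was that of Svs5 (chromosome 3, 152996146 to 152997757). This gene is named for a protein of seminal vesicle secretion. It ranged from 272.2 to 607 CPM (median 497.8) in the lower pool and from 31.26 to 133.6 CPM (median 104.3) in the higher pool. The gap between the pools was wide, and the vehicle litters, at 607, 551.9 and 568.6 CPM, lay close together above those at 100 mg/kg/day. Svs5 fell to 21.1% of the lower pool, a log2 fold change of -2.25 ± 0.25 (edgeR adjusted p = 0.00397). Its promoter window is shown because it alone of the 9 windows found for genes that passed held AAGGTCA, a core letter string bound by orphan nuclear receptors such as the product of Nr5a1. The string, in capitals, was searched on both strands and is in 1 of the 9 windows (11.1%) and in 3.99% of all windows. This 1 match describes letters and is not evidence that a factor was bound. Its part in the fall was not tested.
Svs5, chr3:173415271-173415520 (plus strand): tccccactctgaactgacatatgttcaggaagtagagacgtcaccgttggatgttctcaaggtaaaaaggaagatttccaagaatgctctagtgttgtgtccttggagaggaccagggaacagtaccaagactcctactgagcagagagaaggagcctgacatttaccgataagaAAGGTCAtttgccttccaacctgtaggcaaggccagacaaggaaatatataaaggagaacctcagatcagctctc

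Arhgef38, a guanine nucleotide exchange factor gene, ranged from 5.07 to 16.14 CPM (median 11.34) in the lower pool and from 1.64 to 4.61 CPM (median 2.14) in the higher pool. The highest litters of the higher pool, 2 at 300 mg/kg/day, came close to 100 mg/kg/day replicate 1, and the pools did not overlap. The log2 fold change of Arhgef38 was -2.02 ± 0.32 (edgeR adjusted p = 0.0321).

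Cdkn1c, an imprinted inhibitor of the cell cycle, was the 1 call by edgeR among 12 tested imprinted growth genes (0.131% of all genes lower), whose median was -0.12. Its litters read 17.01, 14.37 and 15.43 CPM under vehicle and 9.51, 7.35 and 9.81 CPM at 100 mg/kg/day, against 4.79 to 7.2 CPM in the higher pool. The litters at 100 mg/kg/day thus lay nearer to the higher pool than to the vehicle. The log2 fold change of Cdkn1c was -0.94 ± 0.13 (edgeR adjusted p = 0.0129), and it did not pass with 1 mean per pool in place of 1 mean per dose (edgeR adjusted p = 0.142).

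Stc2, which encodes a secreted stanniocalcin glycoprotein, showed the same arrangement with overlap. It read 44.62, 38.05 and 41.86 CPM under vehicle and 26.49, 21.41 and 15.12 CPM at 100 mg/kg/day, and 9.87 to 19.41 CPM in the higher pool. The litter at 100 mg/kg/day with the lowest level was below 3 litters of the higher pool. Its log2 fold change was -1.01 ± 0.17 (edgeR adjusted p = 0.0381), and with 1 mean per pool it did not pass (edgeR adjusted p = 0.252).

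Rab33a, a small GTPase gene of vesicle traffic, ranged from 12.55 to 24.08 CPM in the lower pool and from 7.57 to 12.32 CPM in the higher pool. The pools nearly touched, and the log2 fold change was -0.98 ± 0.17 (edgeR adjusted p = 0.0463), the adjusted p nearest to the threshold among the genes that passed. With 1 mean per pool Rab33a did not pass (edgeR adjusted p = 0.0553). Pcyt2, which acts in the synthesis of phosphatidylethanolamine, had the smallest fold change of the 18, at -0.47 ± 0.08 (edgeR adjusted p = 0.0373), with 118.8 to 143.3 CPM against 83.72 to 102.2 CPM. AABR07032097.1 had a log2 fold change of -0.78 ± 0.12 (edgeR adjusted p = 0.033).

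Both genes that rose did so in every litter of the higher pool. Stc1 (chromosome 15, 44299621 to 44310265), the other stanniocalcin gene, read 19.25, 27.74 and 26.32 CPM under vehicle and 16.1, 28.88 and 25.95 CPM at 100 mg/kg/day. It read 41.78, 50.46 and 53.48 CPM at 300 mg/kg/day and 64.94, 75.07 and 80.07 CPM at 600 mg/kg/day. The litters under vehicle and at 100 mg/kg/day overlapped fully, while those at 300 and 600 mg/kg/day did not overlap with them or with each other. Stc1 rose 2.48-fold, a log2 fold change of 1.31 ± 0.15 (edgeR adjusted p = 0.00397). It rose while its paralogue Stc2 fell.

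Testin, which encodes a Sertoli cell secretory protein related to the cathepsins, ranged from 0.297 to 1.65 CPM in the lower pool and from 2.04 to 6.76 CPM in the higher pool. The litters at 600 mg/kg/day were the 3 highest. Its log2 fold change was 2.05 ± 0.28 (edgeR adjusted p = 0.0129) on a mean of only 18.9 counts per library, so its fold is less precise than that of Stc1.

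Markers of the other testis cells gave 0 calls by edgeR and 0 by DESeq2. Of all genes, edgeR called 0.131% lower and 0.0164% higher, and DESeq2 called 0.319% lower. At such shares 0 calls in lists this short do not show that these cells were unchanged. Testin, which rose, was in none of these lists. The Sertoli cell median was 0.09 over 10 genes, the germ cell median 0.02 over 13, the endothelial median -0.007 over 8 and the macrophage median 0.07 over 10. At an unadjusted p under 0.05, 2 of the Sertoli genes, 0 of the germ cell genes, 0 of the endothelial genes and 1 of the macrophage genes were higher, against 2.01% of all genes, and 0 of each were lower. Amh, the Sertoli cell hormone, had a log2 fold change of 0.22 ± 0.20 (edgeR adjusted p = 0.85), which changed sign without the 2 libraries that stood apart. The peritubular and smooth muscle median was 0.31 over 10 genes, of which 4 were negative, with 3 higher at an unadjusted p under 0.05.

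The erythroid markers, which follow blood in the tissue, summed to 15480 to 45830 CPM in the lower pool and 16720 to 81300 CPM in the higher pool. The highest sum was in 600 mg/kg/day replicate 2, and among the lower pool the sums were highest in vehicle replicate 1 and 100 mg/kg/day replicate 1. The erythroid median was 0.24 over 13 genes, none of which passed, and 0.77 without those 2 libraries. The liver list, which follows other fetal tissue, had a median of -0.37 over 5 genes with 0 calls by edgeR. At an unadjusted p under 0.05, 1 gene of the list was lower, against 2.88% of all genes. The summed level of the liver list did not exceed 25.77 CPM in any library. It was 16.32, 19.74 and 25.77 CPM in the litters at 100 mg/kg/day, above every other library. The median of the list was 0.28 against the vehicle alone and -1.19 against 100 mg/kg/day alone. The part of blood content, of other fetal tissue and of the 2 libraries that stood apart in the results was not tested. Lists of 15 targets of the PPAR receptors, 12 cell cycle genes, 8 xenobiotic and oxidative stress genes and 13 interstitial progenitor and hedgehog genes gave 0 calls by edgeR, with medians of -0.06, -0.05, -0.25 and 0.04. Of all genes, edgeR called 0.131% lower and 0.0164% higher. At an unadjusted p under 0.05, 2 of the PPAR targets were lower and 1 of the interstitial genes was higher. In the other 2 lists 0 genes were on either side. Of all tested genes, 2.88% were lower and 2.01% higher at that threshold.

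**Figure D4:**
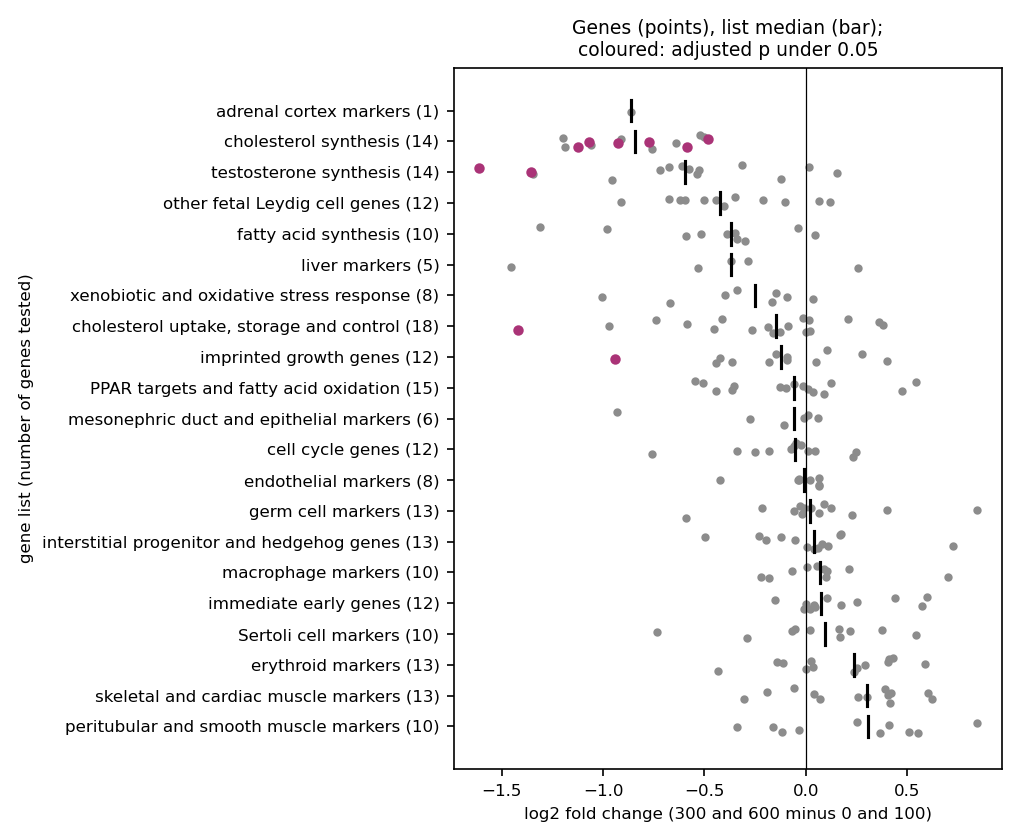
Points are genes by log2 fold change of the higher over the lower pool, bars are list medians, and coloured points have an adjusted p under 0.05; the number of genes tested is beside each list. The coloured points sit in cholesterol synthesis (6), testosterone synthesis (2), cholesterol uptake, storage and control (1) and imprinted growth genes (1), and the cholesterol synthesis list lies wholly below 0.

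Pooling 0 with 100 mg/kg/day puts unexposed and exposed litters together, so the higher pool was also set against each part of the lower pool in the same model. These comparisons share the litters at 300 and 600 mg/kg/day and their values stand side by side. Against the vehicle alone, 20 genes fell (0.164%) and 2 rose (0.0164%). Against 100 mg/kg/day alone, 0 genes passed by edgeR, while DESeq2 called 13. By edgeR 457 genes (3.74% of those tested) had an unadjusted p under 0.05, a share that chance alone can give. The fold change of Star was -2.19 ± 0.21 against the vehicle (edgeR adjusted p = 0.00199) and -1.04 ± 0.21 against 100 mg/kg/day (edgeR adjusted p = 0.514). For Fdx1 these were -1.68 ± 0.17 and -1.03 ± 0.17, and for Scarb1 -1.84 ± 0.18 and -0.997 ± 0.19.

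Stc1 had nearly the same fold change against either dose, 1.29 ± 0.20 against the vehicle and 1.33 ± 0.20 against 100 mg/kg/day. Svs5 was at -2.61 ± 0.28 and -1.88 ± 0.28, and Idi1 at -1.13 ± 0.13 and -0.73 ± 0.13. Cdkn1c was at -1.35 ± 0.15 and -0.54 ± 0.16 and Stc2 at -1.50 ± 0.19 and -0.52 ± 0.20. The median of the testosterone list was -0.82 against the vehicle and -0.43 against 100 mg/kg/day, and that of the cholesterol synthesis list -0.93 and -0.70.

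Against the vehicle 4 further genes fell: Hsd3b3 at -0.83 ± 0.13 (edgeR adjusted p = 0.0334), Inha at -0.81 ± 0.14 (edgeR adjusted p = 0.0453), Cyp11a1 at -1.23 ± 0.21 and Crabp2, a retinoic acid binding protein gene, at -0.60 ± 0.10 (both edgeR adjusted p = 0.0462). Against 100 mg/kg/day the same genes had log2 fold changes of -0.24 ± 0.14, -0.20 ± 0.14, -0.68 ± 0.21 and -0.33 ± 0.10, none of which passed. A difference between the fold changes against the vehicle and against 100 mg/kg/day equals the contrast of 100 mg/kg/day with the vehicle. That contrast gave 0 calls by edgeR and 0 by DESeq2, and edgeR put 359 genes (2.94%) at an unadjusted p under 0.05. Chance alone can give this share too.

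Within the higher pool, 600 against 300 mg/kg/day gave 0 calls by edgeR and 0 by DESeq2, and edgeR put 140 genes at an unadjusted p under 0.05. The values of the genes that passed mostly continued in the same direction from 300 to 600 mg/kg/day. Star had a log2 fold change of -0.66 between these doses, Svs5 of -0.73, Stc1 of 0.59 and Testin of 0.93, each with an adjusted p of 1. Among the enzymes of cholesterol synthesis the steps were smaller, with a list median of -0.18. The medians of the erythroid and of the skeletal and cardiac muscle lists between these doses were 1.08 and 1.004, and their part in the step from 300 to 600 mg/kg/day was not tested. Lss had a value of 0.20 in the other direction. These 3 litters a dose do not show that 300 and 600 mg/kg/day act alike.

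The 2 litters at 900 mg/kg/day had no part in choosing the genes or in the test, and their levels, normalised with all 14 libraries, are given as a description. Star read 45.6 and 47.49 CPM at 900 mg/kg/day, within the 33.83 to 83.28 CPM of the higher pool on that scale. Svs5 read 19.67 and 27.82 CPM, below all 6 litters of the higher pool, and Fdx1 read 407.1 and 508.7 CPM, also below all 6. Stc1 read 55.74 and 87.85 CPM and Testin 6.64 and 6.36 CPM, above every litter of the lower pool. Acat2 read 46.09 and 47.15 CPM, between the 28.47 to 44.58 CPM of the higher pool and the 56.52 to 111.6 CPM of the lower pool.

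How many genes passed depended on which libraries were in the model. Leaving out 1 library at a time gave between 6 and 23 genes. The count dropped to 11 without vehicle replicate 3, to 9 without 100 mg/kg/day replicate 3 or without 300 mg/kg/day replicate 1, and to 8 without 600 mg/kg/day replicate 2. It dropped to 6 when replicate 2 or 3 at 300 mg/kg/day, or replicate 3 at 600 mg/kg/day, was absent. Fdx1, Idi1, Scarb1, Star, Stc1 and Svs5 passed in all 12 of these fits. Sqle and Acat2 did not pass in 4 of them, with adjusted p up to 0.0627 and 0.0751. Testin did not pass in 5, Cdkn1c in 6, Dhcr7 in 7, Arhgef38, Fdft1 and AABR07032097.1 in 9, and Pcyt2, Lss, Stc2 and Rab33a in 10 of the 12. The direction of each of these 18 genes was the same in every fit.

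With both libraries that stood apart left out, 44 genes fell and 5 rose, and 17 of the 18 genes were among them. Svs5 was the exception, with an adjusted p of 0.0757 by edgeR. In that fit 4 of 13 tested genes of the testosterone list fell, against 0.353% of all genes, with a list median of -0.64. Pcyt2 did not pass without the filter on low counts (edgeR adjusted p = 0.0618) and Lss did not pass with library totals in place of TMM scaling (edgeR adjusted p = 0.0511). DESeq2 called 46 genes, 39 lower and 7 higher, which included all 18.

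**Figure D5:**
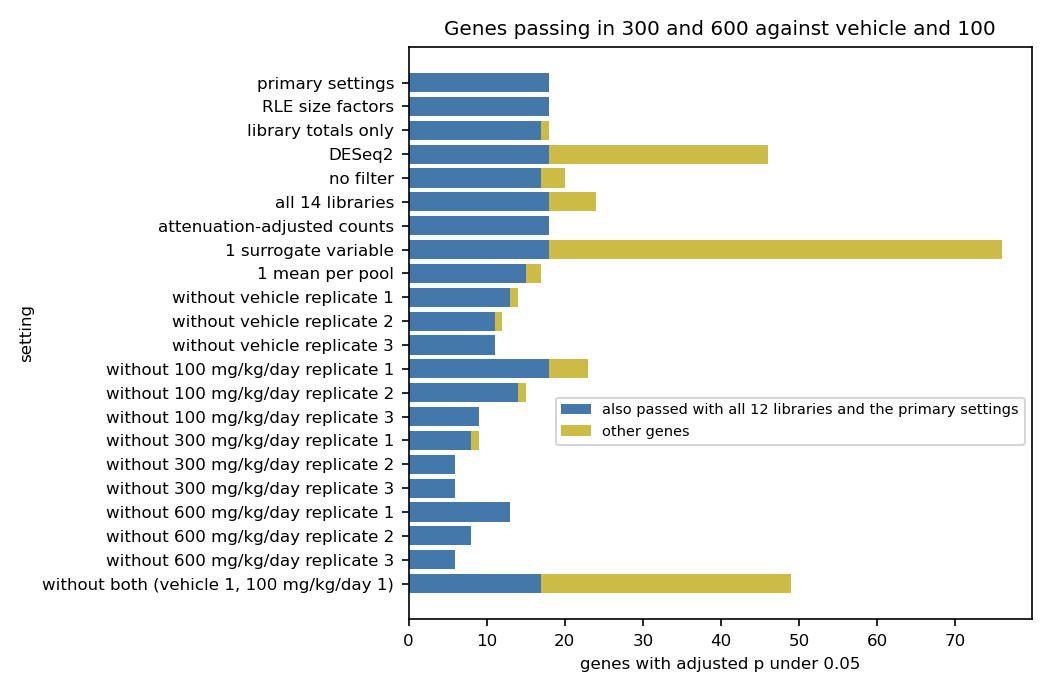
Bars count the genes with an adjusted p under 0.05 in the comparison of the pools under each setting, split into those that also pass with the primary settings and others. The bar is 18 with the primary settings and runs from 6 to 23 when 1 library is left out, and the longest bar, 76, is that with 1 surrogate variable.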

How the data were processed

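RNA from testes pooled by litter was measured by TempO-Seq. The submitters' processing notes name STAR 2.7.8a, Partek, DESeq2 and the rat build rn7, without roles. The deposited values are estimated counts that the authors made per Ensembl gene, and 83.6% of them are whole to a tolerance of 1e-09; the tool is not given in the sources used here. They were rounded. Libraries were mapped to litters by their titles, and 0 columns lacked a sample.

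The 12 libraries at 0 to 600 mg/kg/day were filtered with edgeR's filterByExpr on dose groups (5961 genes left out; 800 tested genes have no name), scaled by TMM and fitted with 1 mean per dose in edgeR's robust quasi-likelihood model (edgeR 4.0.16, limma 3.58.1, R 4.3.3; 8 residual degrees of freedom). The main contrast is the mean of 300 and 600 minus the mean of 0 and 100. Tests were two-sided, with Benjamini-Hochberg adjustment over all tested genes and a threshold of 0.05. Errors are SE. The code was tested on simulated data.

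Members and lists were chosen with earlier results of these data known. The 21 lists hold 306 symbols, 40 of them not in the table and 37 in it but not tested. Named genes are the 12 largest falls and rises that passed without overlap at a mean count of at least 20, up to 5 members per list by p, and 17 steroid, sterol and hormone genes whatever their values. Testin, Pcyt2, Stc2, AABR07032097.1, Tm7sf2, Mvd and Hsd17b7 fall outside this rule and were named after their values were seen. So were Crabp2, Srebf2 and genes named in the closing section. Msmo1 also falls outside the rule and is named for its promoter window. Alternatives were RLE or total scaling, DESeq2 1.42.0, no filter, all 14 libraries, attenuation-adjusted counts (the authors' deposited table in which 16 genes are rescaled), 1 surrogate variable (sva 3.50.0), 1 mean per pool, and libraries left out. A deposited table of log2 CPM was not used. Values of 2 genes of the lists are not reported here. Promoters are RefSeq windows on GRCr8.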

Additional observations from a re-analysis of the deposited data

Results flagged for a closer look

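In 102 sets of 6 litters (levels of 29 genes, summed levels of 21 lists and the total count, in either pool), the lowest and highest litters were compared with the nearest other, on the log2 scale, by the ratio of Dixon at its 95% critical value. In 5 sets the ratio exceeded it, and chance alone puts about 1 in 20 past it. In the higher pool 600 mg/kg/day replicate 3, the library with the fewest counts, was set apart at the low end in 4 of them. Idi1 read 21.94 CPM in it, against 27.65 to 31.17 CPM in the other 5 litters. Acat2 read 28.15 CPM, against 39.3 to 44.36 CPM. The summed cholesterol synthesis genes read 503.3 CPM, against 599.5 to 646.2 CPM. AABR07032097.1 read 9.32 CPM, against 10.52 to 11.04 CPM. Without this litter Idi1 passed (edgeR adjusted p = 0.0208), while Acat2 and AABR07032097.1 did not (edgeR adjusted p = 0.0516 and 0.16). In the lower pool the summed macrophage markers read 79.72 CPM in 100 mg/kg/day replicate 2, against 59.79 to 62.24 CPM in the other 5 litters.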

How the results depend on the processing

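The 18 genes of the pooled comparison became 46 with DESeq2, 76 with 1 surrogate variable (62 lower, 14 higher), 49 without the 2 libraries that stood apart, and 6 to 23 when 1 library was left out. Against the vehicle the 22 genes became 68, 122 and 72 under the same 3 settings and 8 to 51 with 1 library left out. Against 100 mg/kg/day the 0 genes became 13, 6 and 2, and 0 to 1. 100 mg/kg/day against the vehicle gave 17 genes with 1 surrogate variable, and 600 against 300 mg/kg/day gave 0 throughout. RLE and total scaling, no filter, all 14 libraries and attenuation-adjusted counts kept each count within 1.5 times. Hsd17b3 turned to -0.0231 with 1 surrogate variable, -0.0293 without the 2 libraries, where Amh turned to -0.0135, and ran from -0.0257 to 0.0794 with 1 library left out, with -0.0257 in the absence of 100 mg/kg/day replicate 1 and -0.0035 in that of 600 mg/kg/day replicate 1. The cause was not tested. No paired analysis was possible because litters carry no number that links the doses. With 3 litters a dose, and low counts in genes such as Testin and Hmgcs1, a gene that did not pass is not shown to be unchanged.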

Other observations

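In the skeletal and cardiac muscle list the pools did not overlap in 1 of 13 tested genes, Tnni1, with the higher pool above. Such a rise without overlap was in 0 of 10 genes of the peritubular and smooth muscle list and in 0.229% of all tested genes. Tnni1, a troponin subunit of slow muscle, ranged from 35.62 to 61.6 CPM in the lower pool and from 62.94 to 93.96 CPM in the higher pool (log2 fold change 0.60 ± 0.13, edgeR adjusted p = 0.231), and DESeq2 gave it an adjusted p of 0.0115. Tpm1, a tropomyosin gene in neither list that was picked after its values were seen, ranged from 440.3 to 646.3 CPM and from 657.8 to 841.6 CPM (log2 fold change 0.40, edgeR adjusted p = 0.559). Acta2, the smooth muscle actin of peritubular cells, overlapped slightly, with 106.5 to 152.3 CPM against 149.8 to 184.6 CPM (log2 fold change 0.37 ± 0.10, edgeR adjusted p = 0.516). The skeletal and cardiac muscle list had a median of 0.30 with 0 calls by edgeR and 1 by DESeq2, and 2 of its genes were higher at an unadjusted p under 0.05 (2.01% of all genes). Log2 fold changes were negative for 3 of 13 genes in this list and 4 of 10 in the peritubular list, such as Tnnt1 at -0.19, Mylk at -0.34 and Actg2 at -0.16.

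Hhip, a hedgehog-binding protein gene expressed as a target of the pathway, ranged from 1.48 to 5.15 CPM in the lower pool and from 5.216 to 7.5 CPM in the higher pool (log2 fold change 0.72 ± 0.25, edgeR adjusted p = 0.843). Alas1, the first enzyme of heme synthesis, ranged from 9.25 to 12.64 CPM and from 4.17 to 7.09 CPM, with no overlap (log2 fold change -0.85 ± 0.15, edgeR adjusted p = 0.0637). It passed with DESeq2 (adjusted p = 0.000493), and in edgeR with all 14 libraries, 1 mean per pool and 1 surrogate variable (adjusted p = 0.0323, 0.0464 and 0.00811). Prlr, the prolactin receptor gene of Leydig cells, had a log2 fold change of -0.91 ± 0.26 (edgeR adjusted p = 0.563). Eif5b, a translation initiation factor gene, did not overlap between the pools but spread from 1.78 to 41.68 CPM within the lower pool (log2 fold change 1.80 ± 0.60, edgeR adjusted p = 0.843). Without 100 mg/kg/day replicate 2 its log2 fold change was 3.26 (edgeR adjusted p = 0.00427).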
